A study of Mus musculus with 9 samples.

Results

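Antisense RNAs are transcripts read from the DNA strand opposite another gene, and many begin inside the first exon or intron of that gene or run across its far end. They are frequent in the brain, and single members are known to raise or lower the expression of the gene they overlap. When a sequencing library does not keep strand, a fragment from bases that both genes cover cannot be given to one of them. Here 432 of the 2727 genes typed as antisense_RNA in a table of 53465 genes are described. They were chosen by level, as those with a mean of at least 4 FPKM (fragments scaled to gene length and library depth) over all 9 libraries, a rule that used the level but not the group.

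RNA was sequenced from freshly isolated mouse vHIP, the ventral hippocampus, in 9 libraries of 3 groups with 3 libraries each. The first group is labelled CRS-NKAα1+/- and is named by that label only, and the second CRS-WT-DR5-12D, wild-type mice with DR5-12D added. The third, CRS-WT, is wild-type mice with no such addition in the label. All 3 groups carry the prefix CRS, an abbreviation the labels leave unexplained, as they do DR5-12D. They give no ages and tie no library to an animal, so p-values measure the spread between these libraries, which may in part be technical. No group without CRS was analysed here. The comparisons of CRS-NKAα1+/- and of CRS-WT-DR5-12D with CRS-WT share the same CRS-WT libraries.

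Implied depth ran between 15117452 and 27323380 fragments a library. Neuronal and glial markers were present in every library. Replicates 1 and 2 of CRS-NKAα1+/- stood apart together with replicate 1 of CRS-WT-DR5-12D, with cortex-like markers (5 genes) summing to 142, 141 and 109 FPKM, against 21.02 to 29.08 FPKM in the other 6, and with the lowest sums of 11 dentate granule cell markers, 95.6, 104 and 108 FPKM against 118 to 146 FPKM. Several results are given below both with and without these 3 libraries.

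The members ranged from 4.002 to 357 FPKM in mean level, with a median of 9.36 FPKM. Of the 432, 195 lay at 4 to 8 FPKM, 110 at 8 to 16, 64 at 16 to 32 and 63 at 32 or more. Just inside the threshold were Gm44317 and Gm17133 with means of 4.002 and 4.02 FPKM, and just outside it 4930599N23Rik and Gm16124 with 3.99 and 3.98 FPKM. All 432 had fragments in every library, and all passed the filter of a mean of 0.5 FPKM that set the 17753 genes tested. A mean under 4 FPKM was seen for 16 members in CRS-NKAα1+/-, for 13 in CRS-WT-DR5-12D and for 30 in CRS-WT and so rested on the other groups, and 378 were at or over it in every group.

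GENCODE M21 placed 429 of the members on GRCm38. Each was paired with the protein_coding gene on the opposite strand that it overlapped the most, called its partner here. Of the 432, 403 shared exon bases with the partner, 18 lay over its introns only, 7 started within 5 kb of its start and 4 had no partner. At least 1 exon base lay opposite an exon of some gene in 412 members, at least 10% of the exon bases did so in 371, and 35 lay wholly inside the exons of the partner. Only 16 members shared no exon base with any annotated gene. Since the strandedness of the libraries is not stated, the FPKM of most members holds bases that the partner also covers, and fragments there cannot be told apart.

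The stretches of transcript below are those of the 4 members that passed the test across the 3 groups, chosen where the member leaves or enters the partner. They are printed 5′ to 3′ on the strand of the antisense RNA, from GENCODE M21 transcripts, with the bases opposite partner exons in capitals.
Gm43701: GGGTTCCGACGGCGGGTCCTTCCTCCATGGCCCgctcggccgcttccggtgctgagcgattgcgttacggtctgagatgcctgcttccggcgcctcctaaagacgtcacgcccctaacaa
Gm29629: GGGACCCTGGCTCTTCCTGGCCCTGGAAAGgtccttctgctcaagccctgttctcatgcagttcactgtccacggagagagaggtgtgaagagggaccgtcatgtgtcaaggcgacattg
Gm11973: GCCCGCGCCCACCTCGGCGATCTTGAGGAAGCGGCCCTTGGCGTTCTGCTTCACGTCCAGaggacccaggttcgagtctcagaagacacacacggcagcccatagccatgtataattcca
CT030161.2: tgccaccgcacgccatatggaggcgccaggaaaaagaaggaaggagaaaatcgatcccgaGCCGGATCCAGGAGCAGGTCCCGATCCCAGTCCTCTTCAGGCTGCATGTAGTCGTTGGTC
Gm43701 (ENSMUSG00000107081, chr5:36748618-36750437, plus strand, 2 exons) begins 32 bases inside Bloc1s4 and shares 33 of its 391 exon bases with it, all in the first 120 bases shown. Gm29629 (ENSMUSG00000099874, chr1:132139504-132142800, plus strand, 2 exons) begins 180 bases inside Cdk18 and shares 86 of 386 bases, of which the stretch from base 57 to base 176 holds 30. Gm11973 (ENSMUSG00000086839, chr11:6475425-6493535, plus strand, 6 exons) begins 492 bases inside Purb and shares 285 of 975 bases, and the stretch from base 186 to base 305 of an 867-base transcript runs out of the Purb coding exon after 60 bases. CT030161.2 (ENSMUSG00000112336, chr12:80259443-80260557, plus strand, 2 exons) begins 928 bases inside Actn1 and shares 363 of 735 bases, and the stretch from base 127 to base 246 enters the coding exon of Actn1 for its last 60 bases. In all 4 the antisense RNA therefore starts downstream of the partner's start and reads back across its head.

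Gm43701 had the largest log2 difference of any member in both comparisons with CRS-WT, and it stayed under 1 FPKM in every CRS-WT library. Its level was 4.57, 5.42 and 8.88 FPKM in CRS-NKAα1+/-, 7.41, 8.62 and 10.51 FPKM in CRS-WT-DR5-12D and 0.374, 0.846 and 0.354 FPKM in CRS-WT. These rested on 28, 48 and 91 fragments in CRS-NKAα1+/-, 76, 64 and 67 in CRS-WT-DR5-12D and 4, 5 and 3 in CRS-WT. Every library of CRS-NKAα1+/- and CRS-WT-DR5-12D stood above every CRS-WT library. Bloc1s4, which encodes a subunit of the BLOC-1 complex of endosomal trafficking, stood at 8.68, 7.49 and 9.60 FPKM in CRS-NKAα1+/-, 7.79, 9.72 and 10.45 FPKM in CRS-WT-DR5-12D and 6.58, 6.96 and 7.03 FPKM in CRS-WT, a difference that did not pass the test in either comparison. On the log2(FPKM + 1) scale, which understates the change of low genes, Gm43701 exceeded its CRS-WT level by 2.23 ± 0.23 (SE) in CRS-NKAα1+/- and by 2.69 ± 0.23 in CRS-WT-DR5-12D, with limma adjusted p of 0.0366 and 0.0258 over all genes tested.

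Gm29629 rose in CRS-WT-DR5-12D. It was at 4.63, 6.18 and 4.35 FPKM in CRS-NKAα1+/-, 6.62, 6.28 and 8.42 FPKM in CRS-WT-DR5-12D and 0.569, 1.54 and 1.08 FPKM in CRS-WT, so that both groups lay apart from CRS-WT and from each other. The log2 difference from CRS-WT was 1.99 ± 0.19 for CRS-WT-DR5-12D (limma adjusted p = 0.0401) and 1.57 ± 0.19 for CRS-NKAα1+/- (limma adjusted p = 0.0568). Its partner Cdk18, a cyclin-dependent kinase family member, stood at 7.08, 7.32 and 6.73 FPKM in CRS-NKAα1+/- and at 9.25, 5.72 and 7.95 FPKM in CRS-WT-DR5-12D, against 4.45, 5.44 and 6.55 FPKM in CRS-WT.

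Gm11973 and CT030161.2 passed the F-test over the 3 groups but neither comparison with CRS-WT. Gm11973 stood at 6.94, 6.84 and 4.46 FPKM in CRS-NKAα1+/-, 7.39, 5.94 and 4.97 FPKM in CRS-WT-DR5-12D and 1.46, 1.36 and 1.75 FPKM in CRS-WT. The 6 libraries of the first 2 groups lay above all 3 of CRS-WT. Its partner Purb, a single-stranded nucleic acid binding protein, was at 52.2, 44.5 and 39.8 FPKM in CRS-NKAα1+/-, 54.8, 44.1 and 35.1 FPKM in CRS-WT-DR5-12D and 42.4, 47.4 and 45.9 FPKM in CRS-WT, with every group overlapping. CT030161.2 was at 6.43, 9.01 and 6.13 FPKM in CRS-NKAα1+/-, 5.71, 5.88 and 5.59 FPKM in CRS-WT-DR5-12D and 2.29, 2.34 and 3.32 FPKM in CRS-WT, again with CRS-WT apart and below. Its partner Actn1 encodes the actin crosslinker alpha-actinin 1. The F-test adjusted p was 0.0179 for Gm43701, 0.0274 for Gm29629, 0.0343 for Gm11973 and 0.0429 for CT030161.2.

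**Figure D1:**
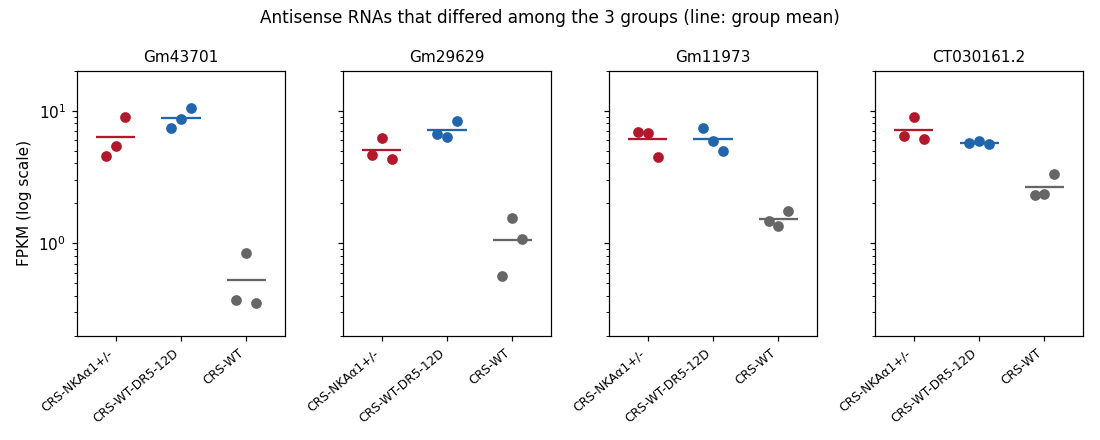
FPKM on a log scale (y) of the 4 members that passed the F-test, by group (x), with 1 point a library and a line at the group mean. In each panel all 3 CRS-WT libraries lie below all 6 others.

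Counted over all members, 1 rose and none fell in CRS-NKAα1+/- relative to CRS-WT, where 0.0225% of all genes tested rose and 0.0% fell. In CRS-WT-DR5-12D relative to CRS-WT, 2 rose and none fell, where 0.0282% of all genes rose and 0.0% fell. In CRS-WT-DR5-12D against CRS-NKAα1+/-, 0 members passed with limma at an adjusted p of 0.05, 50 had an unadjusted p under 0.05, and 0 passed with limma-voom, where 0.513% of all genes passed with limma, 0.0113% higher and 0.501% lower. The F-test passed 4 members, against 0.27% of all genes. All 4 had a mean under 4 FPKM in CRS-WT, as 30 members did, so they were members only through the other groups. Their rise over CRS-WT is therefore not independent of the rule that chose the members, and these counts are a description only. The level calls were not stable to the loss of 1 library. Gm43701 against CRS-WT in CRS-NKAα1+/- lost its call without CRS-NKAα1+/- replicate 2 (adjusted p = 0.0973), without CRS-WT-DR5-12D replicate 1 (0.0501), 2 (0.102) or 3 (0.0736), and without CRS-WT replicate 1 (0.192), 2 (0.0618) or 3 (0.0999). In CRS-WT-DR5-12D it lost it without CRS-WT-DR5-12D replicate 1 (0.098), 2 (0.223) or 3 (0.171) and without CRS-WT replicate 1 (0.142) or 3 (0.0662). Gm29629 lost its call without CRS-WT-DR5-12D replicate 1 (0.139), 2 (0.223) or 3 (0.171) and without CRS-WT replicate 1 (0.142) or 3 (0.0916). On fragments, limma-voom gave Gm43701 log2 differences of 3.56 and 4.04 with adjusted p of 0.108 and 0.0509, and Gm29629 one of 2.83 in CRS-WT-DR5-12D with 0.0509. Without the 3 libraries that stood apart, Gm43701 kept both calls (limma adjusted p of 0.0206 and 0.0308) and Gm29629 lost its call (0.0629).

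For smaller differences, the share of members without overlap stood furthest above that of all genes in CRS-WT-DR5-12D against CRS-WT. In CRS-NKAα1+/- against CRS-WT, 66 members lay wholly above and 39 wholly below the CRS-WT libraries, which is 24.3% of the members against 20.9% of all genes tested. Relative to the same CRS-WT libraries, 95 members lay above and 43 below in CRS-WT-DR5-12D, 31.9% against 22.8%. In CRS-WT-DR5-12D against CRS-NKAα1+/-, 34 lay above and 20 below, 12.5% of the members and 12.5% of all genes tested. An unadjusted p under 0.05 was reached by 22.2% of members in CRS-NKAα1+/- against CRS-WT, by 28.2% when CRS-WT-DR5-12D was set against CRS-WT, and by 11.6% when it was set against CRS-NKAα1+/-. Over all genes tested the shares were 14.1%, 13.0% and 8.83%. Among 8313 protein_coding genes of like mean FPKM these shares were 13.5%, 12.4% and 7.19%. The median within-group SD was also larger for the members, 0.178 on the log2 scale, than for those protein_coding genes, 0.121. Median log2 fold changes were 0.06, 0.07 and 0.01 for the members and 0.01, 0.01 and 0.00 for the protein_coding genes, in the same order of comparisons.

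**Figure D2:**
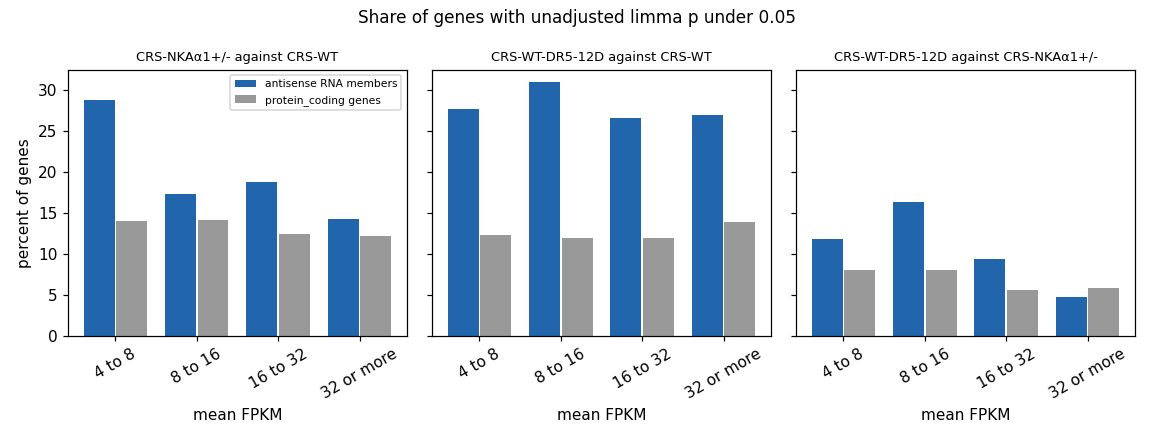
Percent of genes with an unadjusted limma p under 0.05 (y) by mean FPKM (x), with bars for antisense RNA members and for protein_coding genes, in 3 comparisons. Set against CRS-WT, the CRS-WT-DR5-12D panel has member bars that reach 26.6% to 30.9%, and protein_coding bars that reach 12.0% to 13.8%.

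None of the 10 members with the highest mean level passed the test. Where such a member shares exon bases with the partner, its FPKM may hold fragments of the partner. Gm14703, opposite the synaptophysin gene Syp, averaged 362 ± 33.5 FPKM in CRS-NKAα1+/-, 337 ± 17.2 FPKM in CRS-WT-DR5-12D and 371 ± 31.1 FPKM in CRS-WT (SD, n = 3 each). Chn1os1, opposite Chn1, a Rac GTPase-activating protein, averaged 293 ± 33.7 FPKM in CRS-NKAα1+/-, 331 ± 65.8 FPKM in CRS-WT-DR5-12D and 249 ± 29.6 FPKM in CRS-WT. Gm12999 lay wholly inside the exons of Atpif1, the ATP synthase inhibitor, and was at 245, 280 and 307 FPKM in CRS-NKAα1+/-, 304, 267 and 315 FPKM in CRS-WT-DR5-12D and 239, 219 and 245 FPKM in CRS-WT, with the lowest CRS-NKAα1+/- library level with the highest CRS-WT library. Gm28221, inside Ncald, which encodes a neuronal calcium sensor, was at 325, 252 and 149 FPKM in CRS-NKAα1+/-, 335, 185 and 154 FPKM in CRS-WT-DR5-12D and 216, 206 and 195 FPKM in CRS-WT. Its high values were in the 3 libraries that stood apart, whose part in the result was not tested. The other 6 of the 10 with the highest means were Gm30934, Gm42413, Gm12841, Gm28294, Gm37401 and Gm45552. Of 46 members without a clone number for a name, 42 are named for an opposite-strand gene, and these ranged from 4.12 to 291 FPKM.

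Members and partners varied together over the libraries where they share exon bases. Over the 9 libraries the median Pearson r of member and partner was 0.686 across 418 pairs, given as a description. It was 0.702 for 396 pairs with shared exon bases and 0.392 for 22 pairs without, and 88 pairs had an r above 0.9. The median r was 0.662 for 149 pairs with up to 25% of the member's exon bases shared. For 82 pairs with more than 75% shared it was 0.765. The r of unrelated gene pairs is not given here for comparison. Over the 6 libraries left without the 3 that stood apart, the median r was 0.571 for all pairs, 0.603 for those with shared exon bases and 0.00898 for those without, so the value of 0.392 rested on these 3 libraries. Pairs share their libraries, and those with shared exon bases may share fragments. Members wholly inside the partner's exons had fewer fragments than the partner in all 9 libraries in 34 of the 34 pairs with whole fragment numbers, with a median ratio of 0.173. If strand was not kept, fragments of such a member also lie on the partner, so this order is not read as a result. The next stretches are from 3 members whose level tracked the partner closely, with capitals again marking bases opposite partner exons.
Gm42413: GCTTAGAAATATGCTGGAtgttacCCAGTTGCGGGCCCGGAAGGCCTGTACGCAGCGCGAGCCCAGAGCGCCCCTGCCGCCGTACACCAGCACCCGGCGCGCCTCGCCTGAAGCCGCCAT
Gm20496: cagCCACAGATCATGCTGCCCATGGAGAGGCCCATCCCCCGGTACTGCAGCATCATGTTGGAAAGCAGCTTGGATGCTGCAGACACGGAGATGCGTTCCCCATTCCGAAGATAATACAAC
Gm45774: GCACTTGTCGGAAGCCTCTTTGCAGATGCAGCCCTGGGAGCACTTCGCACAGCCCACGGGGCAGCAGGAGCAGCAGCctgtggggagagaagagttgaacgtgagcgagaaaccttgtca
Gm42413 (chr5:45434389-45450138, plus strand) shares 332 of 338 exon bases with Qdpr, which recycles the cofactor tetrahydrobiopterin. Gm20496 (chr17:34199316-34205449, minus strand) shares 498 of 663 with the immunoproteasome subunit Psmb8. Gm45774 (chr8:94170748-94173412, minus strand) is a single exon that covers 432 bases of the metallothionein gene Mt2, and its fragments numbered 1364, 1604 and 5597 in CRS-NKAα1+/-, 2373, 2476 and 2405 in CRS-WT-DR5-12D and 4892, 3142 and 3196 in CRS-WT. Those of Mt2 were 1341, 1568 and 5458 in CRS-NKAα1+/-, 2327, 2407 and 2358 in CRS-WT-DR5-12D and 4802, 3072 and 3124 in CRS-WT. Both genes had nearly the same number in every library, with a ratio of member to partner between 1.02 and 1.03. Whether these are the same fragments counted for both genes was not tested.

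Gm42413, Gm45767 and Bcas1os2 had their lowest group mean in CRS-NKAα1+/-. Gm42413, opposite Qdpr, was at 141, 118 and 166 FPKM in CRS-NKAα1+/-, 180, 255 and 215 FPKM in CRS-WT-DR5-12D and 235, 191 and 238 FPKM in CRS-WT, with CRS-NKAα1+/- below both other groups. Gm45767, opposite Pllp, which encodes the myelin protein plasmolipin, was at 4.43, 3.97 and 5.43 FPKM in CRS-NKAα1+/-, 6.44, 10.03 and 7.38 FPKM in CRS-WT-DR5-12D and 8.94, 7.60 and 8.59 FPKM in CRS-WT. Bcas1os2, opposite the oligodendrocyte gene Bcas1, was at 5.44, 3.08 and 4.29 FPKM in CRS-NKAα1+/-, 5.72, 9.55 and 6.37 FPKM in CRS-WT-DR5-12D and 12.1, 7.55 and 7.42 FPKM in CRS-WT. None of these passed the test, with log2 differences of -0.65, -0.75 and -0.92 in CRS-NKAα1+/- against CRS-WT. All 7 oligodendrocyte markers were present in every library and summed to 471, 270 and 416 FPKM in CRS-NKAα1+/-, 464, 878 and 574 FPKM in CRS-WT-DR5-12D and 836, 610 and 685 FPKM in CRS-WT. Their part in these values was not tested, and fewer cells of a type and less RNA per cell cannot be told apart in bulk tissue.

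Gm20496 was at 9.44, 35.4 and 15.2 FPKM in CRS-NKAα1+/-, 3.11, 5.88 and 4.35 FPKM in CRS-WT-DR5-12D and 10.49, 10.2 and 7.58 FPKM in CRS-WT. Psmb8 was at 4.95, 17.7 and 8.06 FPKM in CRS-NKAα1+/-, 1.30, 1.91 and 1.84 FPKM in CRS-WT-DR5-12D and 5.22, 4.67 and 4.04 FPKM in CRS-WT, and both were highest in CRS-NKAα1+/- replicate 2. In CRS-WT-DR5-12D against CRS-NKAα1+/- the log2 difference of Gm20496 was -1.78 ± 0.41 (limma adjusted p = 0.137), while the ratio of Gm20496 to Psmb8 differed by 0.13 ± 0.11. Gm11626, opposite the interferon-induced gene Ifi35, was at 4.60, 9.41 and 5.85 FPKM in CRS-NKAα1+/-, 1.49, 2.21 and 2.39 FPKM in CRS-WT-DR5-12D and 5.17, 5.56 and 2.22 FPKM in CRS-WT. All 7 microglial markers were present in every library and summed to 486, 667 and 459 FPKM in CRS-NKAα1+/-, 222, 173 and 181 FPKM in CRS-WT-DR5-12D and 379, 421 and 317 FPKM in CRS-WT. The part of microglia in these differences was not tested.

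Several named members share no exon base with the partner, and for them both genes have separate exon bases. Strandedness is not stated, so where such a member lies over partner introns, its fragments still cannot be given to a strand. Gm13091, within Rere, which encodes a transcriptional corepressor, was at 7.49, 5.55 and 4.48 FPKM in CRS-NKAα1+/-, 2.77, 3.59 and 3.53 FPKM in CRS-WT-DR5-12D and 3.28, 3.81 and 4.03 FPKM in CRS-WT. AC154683.1, paired with Clybl, was at 4.03, 5.16 and 5.56 FPKM in CRS-NKAα1+/-, 3.83, 4.51 and 4.44 FPKM in CRS-WT-DR5-12D and 5.67, 6.34 and 6.89 FPKM in CRS-WT. Gm13111, paired with Prdm16, a zinc finger regulator of transcription, was at 4.36, 2.70 and 3.99 FPKM in CRS-NKAα1+/-, 4.91, 6.21 and 6.49 FPKM in CRS-WT-DR5-12D and 6.58, 6.16 and 5.18 FPKM in CRS-WT. The libraries labelled CRS-NKAα1+/- stood apart from CRS-WT in all 3, above it for Gm13091 and below it for the other two, and none passed the test. AC159314.1 shares exon bases with Icam4, which encodes a cell adhesion molecule, and had the largest log2 difference among these named members, 1.02 in CRS-NKAα1+/- against CRS-WT. It was at 7.29, 9.02 and 14.1 FPKM in CRS-NKAα1+/-, 3.94, 5.18 and 5.79 FPKM in CRS-WT-DR5-12D and 3.37, 5.30 and 4.45 FPKM in CRS-WT (limma adjusted p = 0.196). AC116724.1, opposite the cadherin gene Cdh9, had 0.854 and 1.499 FPKM in the CRS-NKAα1+/- libraries that stood apart and 4.83 FPKM in the other, 3.22, 6.34 and 4.86 FPKM in CRS-WT-DR5-12D and 4.93, 4.36 and 5.46 FPKM in CRS-WT. The 16 members that share no exon base with any gene had median log2 differences from CRS-WT of 0.19 in CRS-NKAα1+/- and 0.04 in CRS-WT-DR5-12D.

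To see where a member moved apart from its partner, the log2 ratio of member to partner was tested over 1125 antisense pairs, 418 of them with members. In CRS-NKAα1+/- against CRS-WT, 3 members rose relative to the partner and 1 fell, where 0.533% of all pairs passed (0.444% higher and 0.0889% lower). An unadjusted p under 0.05 was reached by 51 member pairs, where 14.0% of all pairs did. The 3 were Gm43701 by 1.95 ± 0.18, Gm11973 by 1.47 ± 0.13 and Gm29629 by 1.25 ± 0.18 (limma adjusted p of 0.000754, 0.000754 and 0.0204). All 3 were members only through the other groups, so these ratio calls are not independent of the rule that chose the members. The ratio of Gm40578 to its partner Tnfaip2 fell by 1.19 on the log2 scale (limma adjusted p = 0.0471). A ratio alone does not show which of the 2 genes moved. Tnfaip2 itself was at 1.51, 2.43 and 6.08 FPKM in CRS-NKAα1+/- and 1.59, 1.92 and 1.42 FPKM in CRS-WT, with the highest value in CRS-NKAα1+/- replicate 3.

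The same ratio rose for 8 members in CRS-WT-DR5-12D relative to CRS-WT and fell for none, where 1.51% of all pairs passed (1.42% higher and 0.0889% lower). An unadjusted p under 0.05 was reached by 116 member pairs, where 23.6% of all pairs did. Gm43701 rose by 2.31 ± 0.18, Gm29629 by 1.59 ± 0.18, Gm11973 by 1.52 ± 0.13 and CT030161.2 by 0.86 ± 0.17. These 4 were likewise members only through the groups where they are high, so their ratio calls are a description only. The other 4 were 4933428P19Rik with Kif1bp (0.63 ± 0.09), 1700071M16Rik with Pla2g7 (0.57 ± 0.10), 0610039K10Rik with Serinc3 (0.67 ± 0.12) and Gm20512 with Nectin2 (0.95 ± 0.17), with limma adjusted p between 0.0094 and 0.0279. Gm12523, opposite the sorting receptor gene Sort1, just missed it (2.10 ± 0.43, limma adjusted p = 0.0501) and was at 4.05, 17.5 and 15.3 FPKM in CRS-NKAα1+/-, 14.3, 21.5 and 14.7 FPKM in CRS-WT-DR5-12D and 2.08, 2.87 and 3.85 FPKM in CRS-WT. When CRS-WT-DR5-12D was set against CRS-NKAα1+/-, 0 of 1125 pairs passed with limma and 26 member pairs had an unadjusted p under 0.05, where 6.93% of all pairs did.

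With each of the 9 libraries left out in turn, the ratios of Gm43701 and Gm11973 in both comparisons with CRS-WT and that of Gm29629 in CRS-WT-DR5-12D stayed called. Leaving out libraries does not remove the dependence of these 3 members on the rule that chose them. The ratio of Gm29629 in CRS-NKAα1+/- lost its call without CRS-NKAα1+/- replicate 2 (adjusted p = 0.0829) and CRS-WT replicate 1 (0.107) or 3 (0.0539). That of Gm40578 kept it only without CRS-NKAα1+/- replicate 1 or 3, with adjusted p up to 0.177 for the other 7. Of the other 5, each called in 3 to 7 of the 9, all lost their call without CRS-WT-DR5-12D replicate 2 (0.0608 to 0.146) and without replicate 3 (0.0557 to 0.111). Without CRS-WT replicate 1, 2 or 3, adjusted p reached 0.122, 0.134 and 0.0608 among them. 0610039K10Rik also lost it without CRS-WT-DR5-12D replicate 1 (0.0638) and CT030161.2 without CRS-NKAα1+/- replicate 3 (0.0647). Without all 3 libraries that stood apart, the ratio of Gm11973 in CRS-NKAα1+/- against CRS-WT was 1.30 and lost its call (limma adjusted p = 0.0706), as did that of Gm29629 (1.14, 0.264), while Gm43701 and Gm40578 kept theirs (0.0141 and 0.00901). In CRS-WT-DR5-12D against CRS-WT, Gm43701, Gm29629 and Gm11973 kept theirs and the other 5 lost it (0.0662 to 0.0828).

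The 0610039K10Rik promoter shows one such start, 281 bases inside Serinc3. The window chr2:163644600-163644899 on the plus strand, from RefSeq GRCm38.p6, holds 250 bases before and 50 after the annotated start, with GGGCGG or its reverse complement CCGCCC in capitals.
0610039K10Rik: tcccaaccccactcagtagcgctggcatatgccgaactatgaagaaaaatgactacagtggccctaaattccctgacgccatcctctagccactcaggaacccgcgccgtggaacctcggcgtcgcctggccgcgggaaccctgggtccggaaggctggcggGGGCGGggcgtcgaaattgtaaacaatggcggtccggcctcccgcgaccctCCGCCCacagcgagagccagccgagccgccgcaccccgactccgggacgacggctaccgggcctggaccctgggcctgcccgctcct
This window has 2 matches, 31 CG pairs and a GC content of 67.3%. Of all 32851 promoters of that length 35.7% hold the motif on either strand, and of the 138 promoter entries with the symbol of a member 42.0% do. The match is a description of the letters only. 0610039K10Rik was at 15.97, 23.4 and 17.6 FPKM in CRS-NKAα1+/-, 21.1, 21.1 and 17.5 FPKM in CRS-WT-DR5-12D and 12.4, 11.9 and 11.7 FPKM in CRS-WT, with CRS-WT below all other libraries, while Serinc3 was at 59.5, 65.8 and 55.6 FPKM in CRS-NKAα1+/-, 61.1, 55.4 and 47.6 FPKM in CRS-WT-DR5-12D and 53.7, 59.6 and 49.6 FPKM in CRS-WT.

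Most members that begin near the partner's start were higher than in CRS-WT in both other groups, a pattern noticed after the values were seen. Of 56 members that start within 1 kb inside the partner's start, 44 exceeded their CRS-WT mean in CRS-NKAα1+/- and 46 did so in CRS-WT-DR5-12D, with medians of 0.20 and 0.39 on the log2 scale. The medians of their partners were 0.01 and 0.02. Without CRS-NKAα1+/- replicate 2, the count in CRS-NKAα1+/- was 39 and the median 0.13, the lowest with 1 library left out, and the highest was 0.27. The same range was 0.31 to 0.43 in CRS-WT-DR5-12D. Of all 17753 genes tested, 9210 were higher than in CRS-WT in CRS-NKAα1+/- and 9164 in CRS-WT-DR5-12D. Among 127 antisense_RNA genes tested but not members, with starts in the same window, 81 and 99 were higher, with medians of 0.11 and 0.19. The 56 include Gm43701, Gm29629, Gm11973 and CT030161.2, members only through the groups where they are high. Their rise is therefore not independent of the rule that chose the members. Of the 56, 32 lay wholly above CRS-WT in CRS-WT-DR5-12D and 1 wholly below it, where 22.8% of all genes did either. In CRS-NKAα1+/-, 16 lay wholly above CRS-WT and 3 wholly below it, where 20.9% of all genes did either. In CRS-WT-DR5-12D against CRS-NKAα1+/-, 8 lay wholly above and 1 wholly below, where 12.5% of all genes did either. Among the 56, Uchl1os, opposite the neuronal deubiquitinase gene Uchl1, was at 45.5, 82.8 and 74.9 FPKM in CRS-NKAα1+/-, 92.8, 79.6 and 78.6 FPKM in CRS-WT-DR5-12D and 36.6, 44.6 and 45.1 FPKM in CRS-WT. Rbm3os, opposite the cold-inducible RNA-binding protein gene Rbm3, was at 10.7, 25.8 and 23.5 FPKM in CRS-NKAα1+/-, 20.2, 27.6 and 16.7 FPKM in CRS-WT-DR5-12D and 13.2, 8.65 and 10.9 FPKM in CRS-WT. Uchl1os lay wholly above CRS-WT in both groups, and Rbm3os did so in CRS-WT-DR5-12D only. Gm42067, opposite Dpf2, went the other way, with 3.12, 5.09 and 5.02 FPKM in CRS-WT-DR5-12D against 6.95, 6.84 and 6.60 FPKM in CRS-WT.

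**Figure D3:**
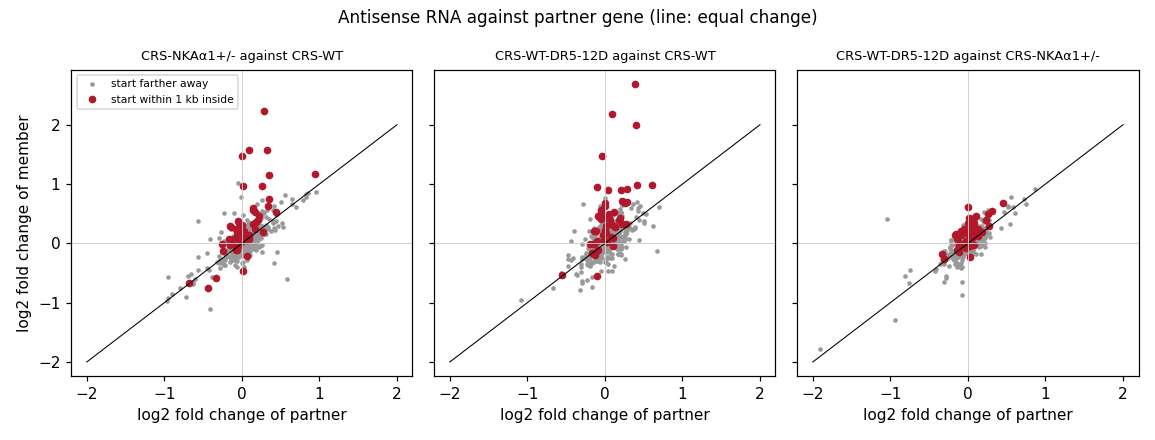
Log2 fold change of each member (y) against that of its partner (x) in 3 comparisons, with members that start within 1 kb inside the partner in red and the others in grey, and a line where both change equally. In the comparisons with CRS-WT many red points lie above the line, up to 2.23 and 2.69.

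The difference also ran along the partner's length. Fragments in the shared bases may come from either gene. The FPKM of a whole partner does not show where its fragments lie along it, and their part in this pattern was not tested. The exons of each partner were laid end to end from 5′ to 3′, and the 403 members with shared exon bases were placed by the middle of those bases into 5 bins of equal length, with 109, 60, 66, 88 and 80 members. Median log2 fold changes of the members in CRS-WT-DR5-12D relative to CRS-WT, first bin to last, were 0.27, 0.09, 0.06, 0.02 and -0.15. In CRS-NKAα1+/- against CRS-WT they were 0.18, 0.06, 0.02, 0.03 and -0.04. In CRS-WT-DR5-12D against CRS-NKAα1+/- they were 0.11, 0.03, 0.00, -0.02 and -0.04. The partners' medians lay between -0.03 and 0.04 in all of these bins and comparisons. Of the 109 members in the first bin, 92 were higher in CRS-WT-DR5-12D relative to CRS-WT, and of the 80 in the last bin 58 were lower. The last bin held Gm44170, opposite the translocon gene Sec61a1, at 32.9, 30.9 and 33.8 FPKM in CRS-WT-DR5-12D against 57.3, 45.3 and 50.1 FPKM in CRS-WT, and Gm17134, opposite the splicing regulator gene Ptbp1, at 11.2, 8.68 and 9.54 FPKM in CRS-WT-DR5-12D against 19.5, 13.5 and 16.04 FPKM in CRS-WT. Both lay wholly below CRS-WT, with limma adjusted p of 0.102 and 0.132. When FPKM were rescaled to sum to the same total, the median of all genes moved to -0.42 in CRS-NKAα1+/- and -0.33 in CRS-WT-DR5-12D against CRS-WT, so these directions are given relative to the median gene.

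**Figure D4:**
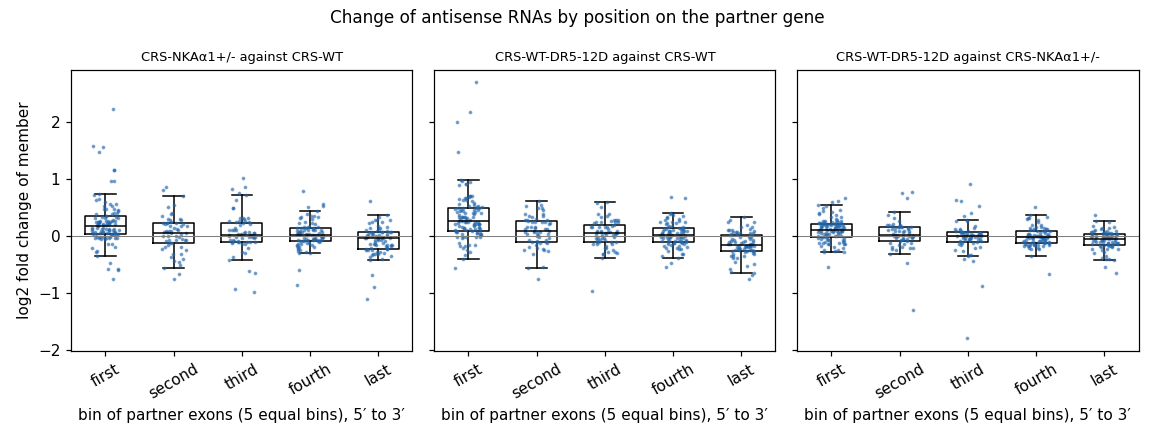
Log2 fold change of members (y) by the bin of the partner's exons that holds the shared bases (x), in 3 comparisons, with a box for the quartiles, a line at the median and 1 point a member. The middle panel, CRS-WT-DR5-12D against CRS-WT, has medians that go from 0.27 in the first bin to -0.15 in the last.

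By library, the median deviation of first-bin members from their 9-library mean, less that of last-bin members, was -0.09, 0.17 and -0.01 in CRS-NKAα1+/-, 0.15, 0.28 and 0.17 in CRS-WT-DR5-12D and -0.18, -0.23 and -0.26 in CRS-WT. All 3 CRS-WT libraries lay below the other 6, CRS-WT-DR5-12D lay above CRS-WT without overlap, and CRS-NKAα1+/- overlapped CRS-WT-DR5-12D. Without the 3 libraries that stood apart, the first-bin medians were 0.14 in CRS-NKAα1+/- and 0.29 in CRS-WT-DR5-12D, each relative to CRS-WT, while the last-bin medians were -0.07 and -0.19. With each library left out in turn, the first-bin median in CRS-NKAα1+/- against CRS-WT ran between 0.11 and 0.22 and was lowest without CRS-NKAα1+/- replicate 2. Its last-bin median ran between -0.06 and -0.03, and its fourth-bin median between -0.00222 (without CRS-NKAα1+/- replicate 1) and 0.03. In CRS-WT-DR5-12D against CRS-WT the first-bin median ran between 0.26 and 0.29. The last-bin median there ran between -0.19 and -0.09, nearest 0 without CRS-WT-DR5-12D replicate 2, and the second-bin median between 0.07 and 0.15, highest without CRS-WT-DR5-12D replicate 1. In CRS-WT-DR5-12D against CRS-NKAα1+/- the first bin kept its sign (0.08 to 0.16). The last-bin median there reached -0.10 without CRS-NKAα1+/- replicate 2 and was -0.00403 without CRS-WT-DR5-12D replicate 2, and the second-bin median turned to -0.00409 without CRS-WT-DR5-12D replicate 3, so no order of the later bins was stable in that comparison. The 776 antisense_RNA genes at 0.5 to 4 FPKM were not members, and in them the medians in the same libraries were 0.20 in the first bin (258 genes) and -0.09 in the last (51 genes) in CRS-WT-DR5-12D relative to CRS-WT, with 0.15 and -0.08 in CRS-NKAα1+/-.

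**Figure D5:**
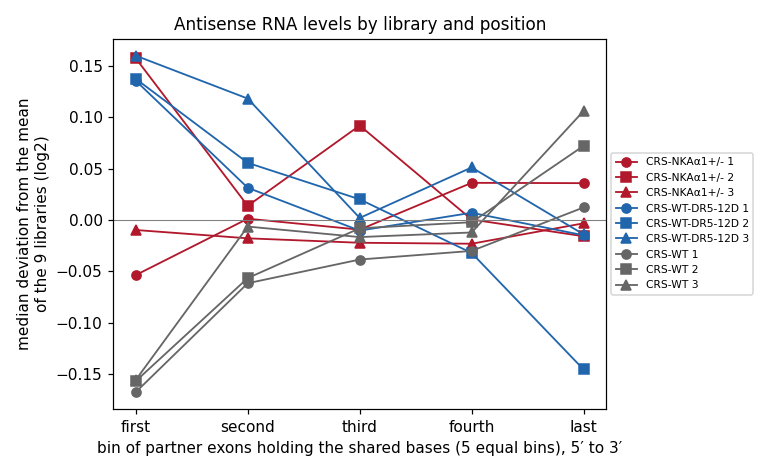
Median deviation of members from their mean over the 9 libraries (y, log2) by bin of the partner's exons (x), with 1 line a library in the colour of its group. The 3 CRS-WT lines are lowest in the first bin, between -0.17 and -0.16.

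The libraries also differed in a transcript of another class. Gm23935, a short gene model with the highest mean FPKM in the table, was at 204782, 202817 and 126215 FPKM in CRS-NKAα1+/-, 173123, 115681 and 143664 FPKM in CRS-WT-DR5-12D and 17597, 15719 and 76096 FPKM in CRS-WT. Its part in the differences of the members was not tested, and any technical difference between CRS-WT and the other libraries cannot be told apart from the groups. GC content also ran with position, with a median of 54.8% in first-bin and 49.5% in last-bin members. After a GC correction of each library, added after the data were seen, 1 and 2 members were called against CRS-WT. The medians by bin were not taken after that correction, so the part of GC content in the pattern by bin was not tested. Members summed to between 3.40% and 3.45% of the protein_coding FPKM in CRS-NKAα1+/-, 3.41% and 3.58% in CRS-WT-DR5-12D and 3.23% and 3.44% in CRS-WT, with the groups overlapping.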

How the data were processed

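RNA-seq values of 9 mouse ventral hippocampus libraries were used as the deposited table of FPKM per gene. Per the submitters' processing notes, cutadapt, HISAT2 and RSEM 1.2.30 and the build GRCm38 were used, and neither strandedness nor the annotation release is stated there. Groups were taken from the labels. A check of these labels against expression is not reported here. The members and lists were chosen with earlier results of these data known.

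From the FPKM, log2(FPKM + 1) of the 17753 genes with a mean of at least 0.5 was fitted with limma 3.58.1 (R 4.3.3) over all 9 libraries, letting the spread depend on mean level, with two-sided tests and Benjamini-Hochberg adjustment over all genes tested. Ratios to partners were fitted in the same way over 1125 pairs. The position on the partner, its 5 bins and the head window of 1 kb came from GENCODE M21. Fragment numbers were recovered as FPKM times exon length times implied depth. They were whole within 0.02 for 422 of the 432 members, and limma-voom on them was an alternative. Members with adjusted p under 0.05, the 5 with the smallest p in each direction, the 10 most abundant, those next to the threshold, ratio calls and the 5 widest ranges were named. The other members named by position, Gm42067, Uchl1os, Rbm3os and Gm45774, were picked with their values in view. The fits were tested on simulated data. In all, 15 alternatives were planned and 4 were added after the data were seen.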

Additional observations from a re-analysis of the deposited data

How the results depend on the processing

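Calls of single members were few. Apart from leaving out 1 library, Gm43701 and Gm29629 lost their level calls with no filter on low values, voom and the replicate block. Gm43701 in CRS-NKAα1+/- also lost it with only the 2 groups compared, and Gm29629 without the 3 libraries that stood apart. Of 156 main values in those settings, medians and ratio calls included, 50 moved. The main counts were 1 in CRS-NKAα1+/- and 2 in CRS-WT-DR5-12D over CRS-WT, and 4 by F-test. With no filter on low values 0, 0 and 1 members passed, with the replicate block 0, 0 and 1, and with voom 0 and 0. The counts were 0, 0 and 0 among members of at least 8 FPKM and among those sharing no exon base. These limits change the list and not the tests. They drop the called members, which lie under 8 FPKM and share exon bases, so they do not test stability. With only the 2 groups compared, 0 and 6 members passed. A pseudocount of 0.1 or 0.5 gave 2 in CRS-NKAα1+/- each. The dentate marker covariate gave 5 in CRS-WT-DR5-12D, and leaving out the 3 libraries that stood apart gave 1. Rescaling to TPM gave 182 (6 higher, 176 lower), 48 (5 higher, 43 lower) and 61, where the median of all genes moved by the shift given in the report. The share of all genes called in that scaling is not given here, so these counts are not read as changes of the members. The total that TPM divides by holds Gm23935, at 15719 to 76096 FPKM in CRS-WT and 115681 to 204782 FPKM in the other groups. Its part in the shift was not tested.

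The member median in CRS-NKAα1+/- against CRS-WT was 0.0337 with the GC correction, 0.0284 with quantile scaling, 0.0265 with voom, 0.0303 without the 3 libraries, 0.0187 with the dentate covariate, 0.19 among members sharing no exon base and -0.40 in TPM. In CRS-WT-DR5-12D against CRS-WT it was 0.0435 among members sharing no exon base and -0.29 in TPM. In CRS-WT-DR5-12D against CRS-NKAα1+/- it was 0.0326 with the dentate covariate, 0.0287 without the 3 libraries, -0.0426 among members sharing no exon base and 0.11 in TPM.

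Ratio calls, 4 in CRS-NKAα1+/- and 8 in CRS-WT-DR5-12D against CRS-WT, were 2 and 4 with no filter. Under limits on the list, which do not change the tests, they were 0 and 4 at 8 FPKM or more and 0 and 0 among members sharing no exon base. In CRS-WT-DR5-12D they were 41 with a filter of 2 FPKM, 21 with only the 2 groups, 16 with quantile scaling and 4 with the dentate covariate. Without the 3 libraries they were 2 and 4, and 1 in CRS-WT-DR5-12D against CRS-NKAα1+/-, as with the covariate. With the replicate block they were 3, 8 and 0, and the numbers are not known to pair the libraries. Same-numbered libraries of CRS-WT-DR5-12D and CRS-NKAα1+/- deviated together for replicates 1 and 3 (r = 0.45 and 0.50) but not 2 (-0.35), and r lay between -0.08 and 0.04 for the pairs with CRS-WT.

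Leaving out 1 library gave 0 to 3, 0 to 6 and 0 to 1 level calls in the 3 comparisons and 0 to 8 by F-test, 2 to 7, 3 to 25 and 0 to 1 ratio calls, and medians of 0.0355 to 0.0647, 0.0522 to 0.0897 and 0.00 to 0.03. Of 6090 single-member values, 5862 kept direction and call, and Gm12841 in CRS-NKAα1+/- against CRS-WT was -0.37 in TPM, a negative sign that it did not have relative to the median of all genes in that scaling (-0.42). The causes were not tested. Depth limits low members such as Gm43701, with 3 to 5 fragments in each CRS-WT library.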
